A study of Homo sapiens with 11 samples.

Results

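The analysis covered the 10 genes for sialic acid synthesis, activation, Golgi transport and removal, among 28395 genes counted in PC3 and DU145 prostate cancer cells. They were taken by pathway and symbol, with earlier results of these data known. The members were GNE, NANS, NANP and CMAS (synthesis and activation), SLC35A1 (transport), and NEU1, NEU3, CTSA, NPL and SIAE (removal and breakdown). Of these, 9 passed the filter on low counts in both lines and NEU1 was listed at 0 in all 11 libraries. Both lines are of human origin. Cells of each line had been transduced with lentiviral particles carrying an ST6GAL1 open reading frame (ST6GAL1 overexpression) or with negative control particles (Lenti-ORF control), so controls and overexpressing cells alike carried a lentivirus, and stable populations were compared. RNA-Seq counts were analysed from 6 PC3 libraries (3 with each lentivirus) and from 5 DU145 libraries, of which 3 were control and 2 ST6GAL1 overexpression, numbered replicates 2 and 3. The sources do not say whether the biological repeats came from separate transductions, so p-values measure the spread between these libraries.

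Sialic acid is made in the cytosol from UDP-N-acetylglucosamine (UDP-GlcNAc), is activated to CMP-sialic acid in the nucleus, and is carried into the Golgi, where sialyltransferases use CMP-sialic acid as the donor. ST6GAL1 is the sialyltransferase that adds sialic acid in α2-6 linkage to N-glycans. Sialidases remove it again in the lysosome and at the plasma membrane, and the free sugar is re-used or split by a lyase. These genes stand before and after the step that was overexpressed, and the comparison asks how their transcripts differed in cells with more ST6GAL1.

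Total counts on genes ran from 13194485 to 18201359 per library. ST6GAL1 was at 2.09 to 3.07 normalized CPM (read counts scaled to a common library size) in PC3 control libraries and 31.7 to 33.3 CPM in PC3 overexpression libraries, and at 11.4 to 14.3 CPM in DU145 control and 299 to 347 CPM in DU145 overexpression libraries, so the labels held. The 4 epithelial markers KRT8, KRT18, EPCAM and CDH1 were read in every library. Their summed level was 511 to 531 CPM in PC3 control and 496 to 499 CPM in PC3 overexpression libraries, and 1049 to 1091 CPM in DU145 control and 881 to 957 CPM in DU145 overexpression libraries. In DU145 KRT8, KRT18 and EPCAM fell and CDH1 rose, and in PC3 KRT8 fell and CDH1 rose. The 5 immune markers summed to at most 2.90 CPM, the 5 fibroblast markers to at most 27.1 CPM and the 3 endothelial markers to at most 7.45 CPM. The fibroblast marker COL1A1 fell in PC3 (log2 fold change -0.47) and the endothelial marker PECAM1 rose in DU145 (1.63, on 3, 7 and 6 counts in control and 12 and 26 with ST6GAL1). The part of these markers in the results below was not tested. Replicate libraries varied less in PC3 than in DU145, with biological coefficients of variation of 0.0226 and 0.0817. The 2 DU145 overexpression libraries differed from each other more than any other replicate pair (chi-square per degree of freedom 13.3, against 1.39 to 5.46), so the DU145 fold changes below rest on overexpression libraries that stand apart from each other. Where 1 of them is left out, the overexpression arm is a lone library that is assumed to vary like the other groups.

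CTSA, SIAE and NANS passed the test in both lines, and the 300 bases around their annotated starts are shown for that reason, from 250 bases before the start to 50 after it (RefSeq, GRCh38.p14, 5′ to 3′ on the gene's strand). Capitals mark CACGTG, the E-box read by MYC and by the TFEB family of lysosomal regulators. CTSA is at chr20:45891085-45891384 on the plus strand, SIAE at chr11:124673690-124673989 on the minus strand, and NANS at chr9:98056482-98056781 on the plus strand. The whole SIAE gene is annotated at chr11:124633113-124676303, so its outer 5′ end lies outside the bases shown.
CTSA: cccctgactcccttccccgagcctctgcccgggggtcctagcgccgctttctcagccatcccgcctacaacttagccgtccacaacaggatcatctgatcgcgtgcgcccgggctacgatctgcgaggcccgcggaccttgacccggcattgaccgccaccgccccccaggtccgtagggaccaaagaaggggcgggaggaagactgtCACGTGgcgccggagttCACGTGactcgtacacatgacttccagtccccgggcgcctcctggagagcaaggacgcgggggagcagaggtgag
SIAE: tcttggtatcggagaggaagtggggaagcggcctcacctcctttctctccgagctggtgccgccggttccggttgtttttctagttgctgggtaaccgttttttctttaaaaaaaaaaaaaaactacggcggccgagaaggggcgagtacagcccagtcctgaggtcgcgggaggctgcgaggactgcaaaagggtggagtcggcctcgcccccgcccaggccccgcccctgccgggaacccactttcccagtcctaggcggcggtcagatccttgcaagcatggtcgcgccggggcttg
NANS: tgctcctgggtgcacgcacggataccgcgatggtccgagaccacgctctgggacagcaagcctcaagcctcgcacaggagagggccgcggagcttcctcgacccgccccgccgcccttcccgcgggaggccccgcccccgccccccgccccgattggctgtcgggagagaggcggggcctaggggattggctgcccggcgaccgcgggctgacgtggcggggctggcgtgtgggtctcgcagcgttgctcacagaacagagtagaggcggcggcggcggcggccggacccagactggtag

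The CTSA promoter held CACGTG at 2 positions, and both carried the longer form GTCACGTG when both strands were read. Among the other members, NEU1 and NPL each held 1 CACGTG, and the promoters of GNE, NANS, NANP, CMAS, SLC35A1, NEU3 and SIAE held none. The promoters read for SIAE and NEU3 do not reach the outer 5′ end of the annotated gene. Of all 27305 promoters of this length, 7.43% held CACGTG and 2.53% held GTCACGTG or its reverse complement. The GC box GGGCGG, counted on both strands, was found 5 times in the NANS promoter and 2 times each in those of CTSA and SIAE, and in 44.6% of all promoters. These are matches of letters, and no binding was measured.

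In PC3 cells with ST6GAL1 overexpression, CTSA, SIAE and SLC35A1 rose and NANS and NANP fell, by 0.21 to 0.35 on the log2 scale in size. GNE, CMAS, NEU3 and NPL did not pass the test. In DU145 cells CTSA and SIAE rose and NANS fell. A gene passed at an adjusted p under 0.05 in the edgeR quasi-likelihood test with Benjamini-Hochberg adjustment. In PC3 37.3% of the 13544 genes tested passed, against 5 of the 9 sialic acid genes tested, with 18.8% of genes higher and 18.5% lower. In DU145 20.1% of 13676 genes passed, against 3 of 9, with 10.7% higher and 9.42% lower. None of the 9 also exceeded an absolute log2 fold change of 0.58, the stricter call used for this study, which 5.38% of genes met in PC3 and 8.94% in DU145. The median log2 fold change of the 9 genes was 0.03 in PC3 and -0.02 in DU145, and that of all genes tested was -0.002 in both. In these bulk libraries fewer cells expressing a gene and less RNA per cell cannot be told apart.

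**Figure D1:**
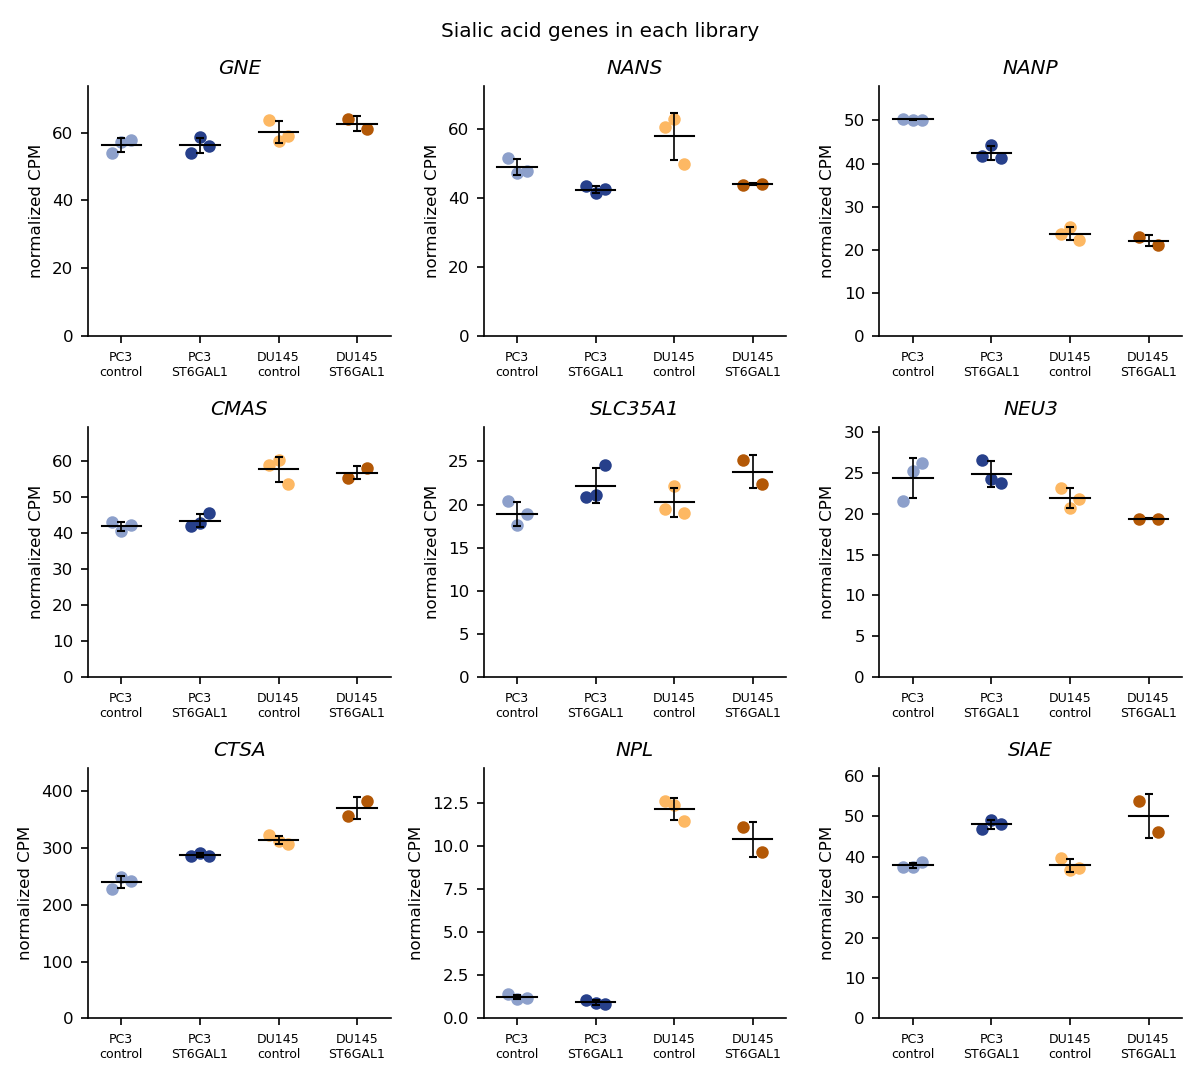
Normalized CPM (vertical axes, from 0) of the 9 sialic acid genes with counts in each of the 11 libraries. Points are libraries, horizontal lines group means and bars 1 SD. CTSA, SIAE and SLC35A1 are higher and NANS and NPL lower in every overexpression library than in every control library of the same line. Of these, NPL did not pass the test in either line and SLC35A1 did not pass in DU145. The share of all genes that separate in this way is not given here.

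GNE, the bifunctional epimerase and kinase that commits UDP-GlcNAc to sialic acid, was at 53.9, 57.2 and 57.7 CPM in PC3 control libraries and 54.1, 58.6 and 56.1 CPM with ST6GAL1. In DU145 it was at 63.7, 57.5 and 59.1 CPM in control and 64.1 and 61.0 CPM with ST6GAL1. The groups overlapped in both lines. The log2 fold change was 0.01 in PC3 (95% interval -0.09 to 0.10, adjusted p = 0.942 by edgeR) and 0.06 in DU145 (-0.12 to 0.25, adjusted p = 0.648).

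NANS, the synthase that makes sialic acid 9-phosphate, was at 51.6, 47.2 and 47.8 CPM in PC3 control libraries and 43.3, 41.3 and 42.6 CPM with ST6GAL1. DU145 libraries were at 60.5, 62.9 and 49.9 CPM in control and 43.8 and 44.1 CPM with ST6GAL1. Every overexpression library was below every control library of its line, and DU145 control replicate 3 was the lowest of its group. On the log2 scale NANS changed by -0.21 ± 0.050 (SE) in PC3 (adjusted p = 0.000837 by edgeR) and -0.39 ± 0.10 in DU145 (adjusted p = 0.0165). In PC3 NANS passed in all 6 fits that left out 1 library, and its adjusted p was 0.061 with the spread shared over all 11 libraries. In DU145 the adjusted p rose to 0.0902 without control replicate 1 and 0.111 without control replicate 2. TRIM14, on the opposite strand, shares 8.56% of the exon bases of NANS, and it was not among the genes that fell, at -0.03 in PC3 (adjusted p = 0.67) and 0.29 in DU145 (adjusted p = 0.0274).

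NANP, the phosphatase that releases free sialic acid, was at 50.4, 50.2 and 50.2 CPM in PC3 control libraries and 41.8, 44.2 and 41.3 CPM with ST6GAL1. The DU145 libraries were at 23.8, 25.3 and 22.2 CPM in control and 23.1 and 21.2 CPM with ST6GAL1. The PC3 groups did not overlap and the DU145 groups did. NANP fell by 0.24 on the log2 scale in PC3 (SE 0.049, adjusted p = 0.00011 by edgeR) and passed in all 6 fits that left out a library. In DU145 the log2 fold change was -0.10 (95% interval -0.33 to 0.14, adjusted p = 0.579).

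CMAS, which activates sialic acid to CMP-sialic acid, ranged from 40.6 to 43.1 CPM in PC3 control and from 42.1 to 45.6 CPM in PC3 overexpression libraries. In DU145 it ranged from 53.7 to 60.4 CPM in control and from 55.4 to 58 CPM with ST6GAL1. The groups overlapped in both lines. The log2 fold change was 0.05 in PC3 (95% interval -0.05 to 0.16, adjusted p = 0.449 by edgeR) and -0.02 in DU145 (-0.21 to 0.17, adjusted p = 0.904). Of the 4 genes of synthesis and activation, 2 fell and 2 did not pass in PC3, and 1 fell and 3 did not pass in DU145. Over all genes tested, 18.5% fell in PC3 and 9.42% fell in DU145, and 4 genes are too few to set against these shares.

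SLC35A1, the transporter that carries CMP-sialic acid into the Golgi, was at 20.4, 17.6 and 18.9 CPM in PC3 control libraries and 20.9, 21.1 and 24.6 CPM with ST6GAL1. In DU145 SLC35A1 was at 19.5, 22.2 and 19.1 CPM in control and 25.2 and 22.4 CPM with ST6GAL1. The groups did not overlap in either line, but the nearest libraries were close, at 20.4 against 20.9 CPM in PC3 and 22.2 against 22.4 CPM in DU145. The log2 fold change was 0.22 ± 0.075 in PC3 (adjusted p = 0.0163 by edgeR) and 0.24 ± 0.12 in DU145 (95% interval -0.01 to 0.49, adjusted p = 0.173). The PC3 call was lost without overexpression replicate 3 (adjusted p = 0.184), without control replicate 2 (0.0818), with DESeq2 (0.0833) and with the spread shared over all libraries (0.0974). A read-through gene on the same strand shares 55.5% of its exon bases, and reads of the 2 genes cannot be told apart in the shared part.

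CTSA encodes cathepsin A, the lysosomal carboxypeptidase that protects the sialidase NEU1 and the galactosidase GLB1 in a complex. It was at 228, 248 and 242 CPM in PC3 control libraries and 285, 291 and 285 CPM with ST6GAL1. In DU145 CTSA was at 322, 312 and 308 CPM in control and 356 and 383 CPM with ST6GAL1. The groups did not overlap in either line. CTSA rose by 0.27 ± 0.030 in PC3 (adjusted p = 1.45e-09 by edgeR) and 0.24 ± 0.073 (log2 fold change ± SE) in DU145 (adjusted p = 0.0311). It passed in all 6 fits that left out a PC3 library. In DU145 the call of CTSA was lost without control replicate 1, 2 or 3 (adjusted p = 0.118, 0.142 and 0.112 by edgeR). The fits without an overexpression replicate leave a lone library in that arm and are not counted as calls here. Over all fits that left out a DU145 library, the log2 fold change of CTSA ran from 0.19 to 0.28. CTSA shares 11.1% of its exon bases with NEURL2 and 3.81% with PLTP, both on the opposite strand, and PLTP itself had a log2 fold change of 0.21 in PC3 (adjusted p = 3.14e-05) and -0.68 in DU145 (adjusted p = 0.0531).

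SIAE, the esterase that removes O-acetyl groups from sialic acid, was at 37.5, 37.6 and 38.7 CPM in PC3 control libraries and 46.9, 49.1 and 48.1 CPM with ST6GAL1. In DU145 SIAE was at 39.8, 36.8 and 37.2 CPM in control and 53.9 and 46.2 CPM with ST6GAL1. Every overexpression library was above every control library. SIAE rose by 0.35 ± 0.050 in PC3 (adjusted p = 3.71e-07 by edgeR) and 0.40 ± 0.097 (log2 fold change ± SE) in DU145 (adjusted p = 0.00937). The PC3 call held in all 6 fits that left out a library. In DU145 it was lost without control replicate 2 (adjusted p = 0.0875) and without overexpression replicate 2 (0.0522). TBRG1, on the opposite strand, shares 34.8% of the SIAE exon bases and had log2 fold changes of 0.09 in PC3 (adjusted p = 0.123) and 0.08 in DU145 (adjusted p = 0.546). SPA17, which shares 5.90%, was at -0.12 (adjusted p = 0.365) and -0.47 (adjusted p = 0.00789).

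NEU3, the sialidase of the plasma membrane that acts on gangliosides, was at 21.6, 25.2 and 26.2 CPM in PC3 control libraries and 26.6, 24.2 and 23.7 CPM with ST6GAL1. In DU145 it was at 23.2, 20.7 and 21.8 CPM in control and 19.4 and 19.3 CPM with ST6GAL1. The PC3 groups overlapped and the DU145 groups did not. The log2 fold change was 0.03 in PC3 (95% interval -0.11 to 0.18, adjusted p = 0.752 by edgeR) and -0.17 in DU145 (-0.41 to 0.06, adjusted p = 0.307).

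NPL, the lyase that splits free sialic acid, was counted with 25, 18 and 18 reads in PC3 control libraries and 16, 16 and 13 reads with ST6GAL1. In DU145 it had 191, 195 and 153 reads in control and 172 and 173 reads with ST6GAL1, or 12.6, 12.4 and 11.4 CPM against 11.1 and 9.66 CPM. The groups did not overlap on the CPM scale in either line. The log2 fold change was -0.42 in PC3 (95% interval -1.0 to 0.16, adjusted p = 0.26 by edgeR) and -0.23 in DU145 (-0.51 to 0.06, adjusted p = 0.271), and at this depth a change of that size was not detectable in PC3. The 50 tested genes around NPL on chromosome 1 had a median log2 fold change of 0.21 in PC3, with 42 higher and 8 lower. For the other 8 genes tested, the median over the same number of neighbours lay within 0.1 of 0 in PC3. In DU145 the NPL neighbours had a median of 0.12 (39 higher, 11 lower) and the GNE neighbours 0.11 (35 higher, 15 lower), and the other 7 medians lay within 0.1 of 0.

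**Figure D2:**
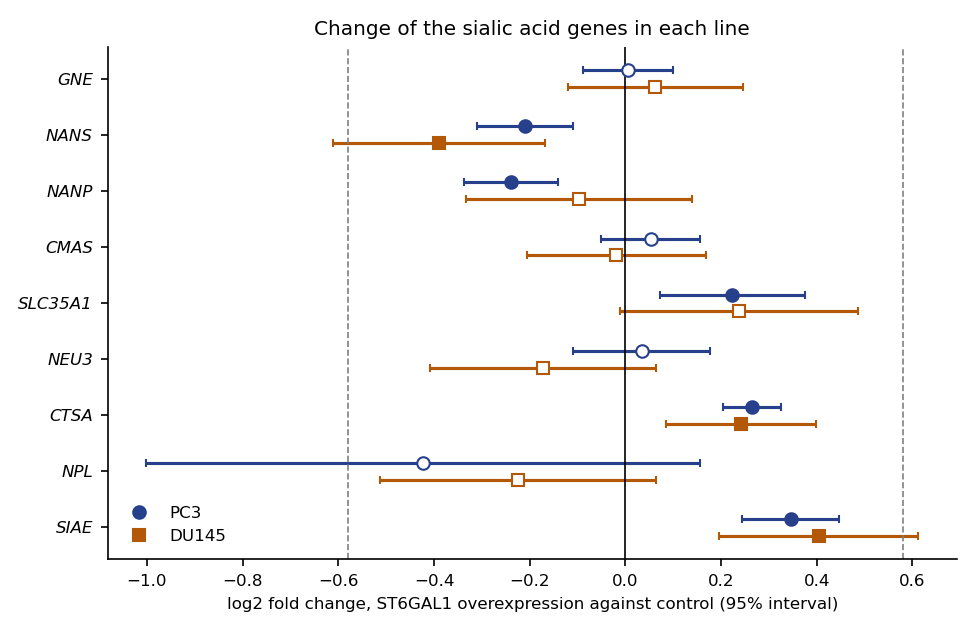
Log2 fold change with ST6GAL1 overexpression (horizontal axis) of the 9 sialic acid genes tested, in PC3 (circles) and DU145 (squares), with 95% intervals from the edgeR fit. Filled symbols passed at an adjusted p under 0.05 and dashed lines mark 0.58 in either direction, which no estimate reaches.

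NEU1, the main lysosomal sialidase, was listed at 0 in each of the 11 libraries, and no statement about its expression can be made from these tables. It lies on chromosome 6 (GRCh38, chr6:31857659-31862821, minus strand). Of the 61 protein-coding genes within 500 kb, NEU1 included, 39 (63.9%) were listed at 0 in all libraries, against 14.0% of all protein-coding genes. From 28 to 34 Mb, the region of the major histocompatibility complex, the share was 57.1%, and on the rest of chromosome 6 it was 11.2%. The genes at or near 0 included ones that nearly every cell uses, such as DDX39B, a helicase of messenger RNA export, with 0 counts over all libraries, LSM2, a splicing protein, with 0, CSNK2B, a kinase subunit, with 21, and BAG6, a chaperone, with 38. The reason for these low counts was not tested.

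**Figure D3:**
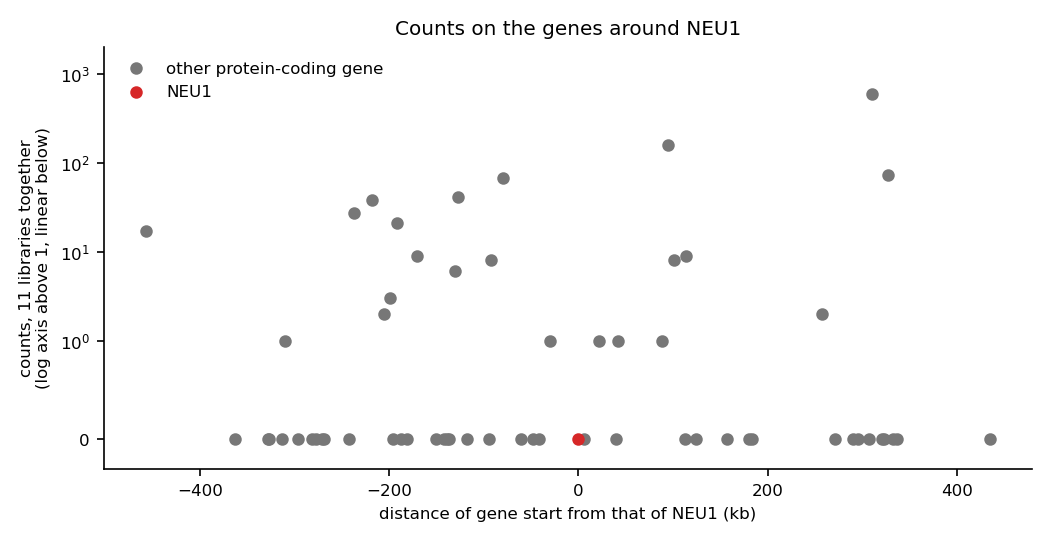
Counts over the 11 libraries together (vertical axis, logarithmic above 1 and linear below) for the protein-coding genes within 500 kb of NEU1, by distance of the gene start from that of NEU1 in kb (horizontal axis). NEU1, in red, is listed at 0, as are 38 of its neighbours.

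The change with ST6GAL1 was compared between the lines as an interaction over all 11 libraries. None of the 9 sialic acid genes passed that test in edgeR, DESeq2 or limma-voom, while 19.7% of 14952 genes did in edgeR. At an unadjusted p under 0.05 in edgeR, 0 of the 9 passed, against 4820 of the 14952 genes. The differences, as the change in DU145 minus the change in PC3, ran from -0.21 for NEU3 (95% interval -0.48 to 0.06) to 0.19 for NPL (-0.37 to 0.75). For CTSA the difference was -0.03 (-0.17 to 0.12) and for SIAE 0.05 (-0.15 to 0.26). For NANS it was -0.19 (-0.42 to 0.04, adjusted p = 0.257 by edgeR), and without DU145 control replicate 3 it was -0.28 with an adjusted p of 0.0351. For NANP, which passed in PC3 and not in DU145, the difference was 0.14 (-0.08 to 0.35, adjusted p = 0.382), so a difference between the lines was not shown.

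The control libraries were compared to ask how far the lines themselves differ in this pathway. NPL was higher and NANP lower in DU145 control than in PC3 control cells, and NANS, CMAS and CTSA were also higher in DU145. NPL ran from 1.14 to 1.40 CPM in PC3 control and from 11.4 to 12.6 CPM in DU145 control, 9.75-fold higher (adjusted p = 2.07e-17 by edgeR). NANP ran from 50.2 to 50.4 CPM in PC3 and from 22.2 to 25.3 CPM in DU145, with a log2 difference of 1.07 ± 0.066 as PC3 minus DU145 (adjusted p = 8.97e-15). On the same scale CMAS differed by -0.47 ± 0.061 (adjusted p = 5.66e-08), CTSA by -0.40 ± 0.046 (adjusted p = 7.06e-09) and NANS by -0.25 ± 0.070 (adjusted p = 0.00231), although the ranges of NANS overlapped. GNE (-0.10), SLC35A1 (-0.10), NEU3 (0.14) and SIAE (-0.01) did not pass, the last with a 95% interval of -0.13 to 0.12. Of 14246 genes tested between the lines 88.2% passed, 44.1% higher in PC3 and 44.1% lower, and 64.6% also exceeded 0.58, against 5 and 2 of the 9 sialic acid genes. The lines were deposited in separate tables, so line and deposit cannot be told apart.

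Per kilobase of merged exons, CTSA had the highest level in PC3 control cells, at 27.7 ± 1.2 CPM per kb (SD, n = 3), and CMAS followed at 21.2 ± 0.63 CPM per kb and NANP at 13.2 ± 0.036 CPM per kb. NANS (9.91), GNE (9.61) and SLC35A1 (9.51) came next, and as neighbours in the order they overlapped over libraries. SIAE (4.69), NEU3 (3.37) and NPL (0.249 CPM per kb) had the lowest levels. In DU145 control cells CTSA (36.4 ± 0.86 CPM per kb) and CMAS (29.2 ± 1.8) again led, NANS (11.7), GNE (10.3) and SLC35A1 (10.2) overlapped, and NANP was sixth at 6.25 CPM per kb, above SIAE (4.70), NEU3 (3.04) and NPL (2.44). The order depends on the length used. With the length of the MANE Select transcript, an alternative chosen after the values were seen, CTSA was still first (129 and 169 CPM per kb in PC3 and DU145) and NANS was second (41.5 and 49.0 CPM per kb).

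**Figure D4:**
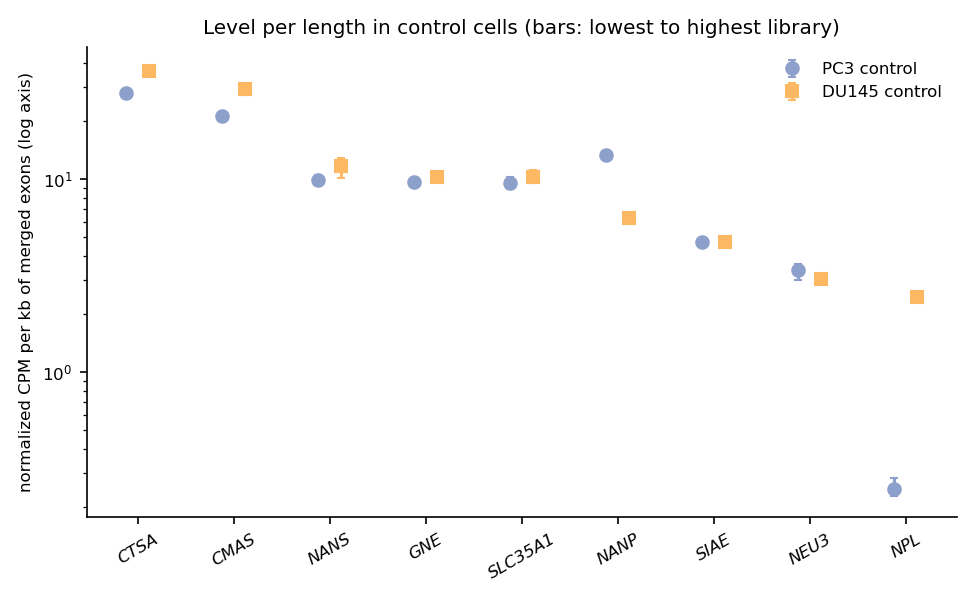
Mean level in CPM per kb of merged exons (vertical axis, logarithmic) of the 9 sialic acid genes with counts in PC3 control and DU145 control cells (n = 3 each), with bars from the lowest to the highest library. NANP is higher in PC3 control cells and NPL is higher in DU145 control cells.

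The supply of UDP-GlcNAc, the starting material of sialic acid, was covered by a list of 10 genes. The list also holds the deacetylase AMDHD2 and the deaminases GNPDA1 and GNPDA2, which lead away from UDP-GlcNAc. In PC3 1 of 9 tested rose, 2 fell and 6 did not pass (median -0.06). Of all genes tested in PC3 37.3% passed, 18.8% higher and 18.5% lower. UAP1, the pyrophosphorylase that makes UDP-GlcNAc, fell by 0.25 (adjusted p = 1.08e-06 by edgeR) and GNPNAT1, the acetyltransferase of the pathway, fell by 0.13 (adjusted p = 0.00584), while AMDHD2, a deacetylase, rose by 0.33 (adjusted p = 7.81e-06). In DU145 2 of 8 tested rose and none fell (median 0.20), where 10.7% of all genes rose and 9.42% fell. The 2 were GFPT2, an enzyme of the first step, at 0.61 (adjusted p = 0.000272 by edgeR) and GNPDA2, a deaminase, at 0.59 (adjusted p = 0.003). At an unadjusted p under 0.05 in edgeR, 5 of the 8 were higher and 0 lower in DU145, against 4465 of all 13676 genes in either direction. DESeq2 and limma-voom also gave 0 that fell. The call of GNPDA2 was lost without DU145 control replicate 2 (adjusted p = 0.0523), and that of GNPNAT1 in PC3 without control replicate 1 (0.092), without overexpression replicate 2 (0.0573) and with the spread shared over all libraries (0.0993). GFPT2 was at 34.5, 34.3 and 36.6 CPM in DU145 control and 51.1 and 55.9 CPM in DU145 overexpression libraries. Between the controls 4 of 9 genes tested were higher in PC3 and 4 lower, where 88.2% of all genes passed, 44.1% in each direction. AMDHD2 had 491 to 611 counts in PC3 control libraries against 3 or 4 in DU145 control libraries. GNPDA1 was higher in PC3 by 0.70 and GFPT1 lower, at -0.51 on the log2 scale (adjusted p = 6.56e-12 and 3.59e-11).

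Of 5 other genes that act on sialic acid, NEU4 was at 0 in all libraries and NEU2 had 3 to 8 counts in PC3 and 0 in DU145. CMAHP, a pseudogene of the hydroxylase that humans lack, passed in PC3 at 1.36 (adjusted p = 0.00786 by edgeR) on 6, 9 and 2 counts in control and 11, 15 and 18 with ST6GAL1. That call was lost with DESeq2 (adjusted p = 0.0629) and without control replicate 3 (0.0667) or overexpression replicate 3 (0.0631). CASD1, which adds O-acetyl groups to sialic acid, and SLC17A5, which exports free sialic acid from the lysosome, did not pass in either line. At an unadjusted p under 0.05 in edgeR, 3 of the 3 genes tested in PC3 were higher, against 6104 of all 13544 genes in either direction. In PC3 1 of them passed with limma-voom and 0 with DESeq2. In DU145 neither of the 2 genes tested passed in edgeR, DESeq2 or limma-voom, or at an unadjusted p under 0.05. Between the controls CASD1 was lower in PC3 (-0.52, adjusted p = 6.17e-08) and SLC17A5 higher (0.27, adjusted p = 0.00412).

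Of 23 lysosomal glycan hydrolases and cofactors tested in PC3, 11 rose, 4 fell and 8 did not pass, with a median of 0.15. Of all genes tested in PC3, 18.8% rose and 18.5% fell. Those with the smallest adjusted p were MAN2B1, a lysosomal mannosidase, at 0.32, SMPD1, the acid sphingomyelinase, at 0.38, and IDUA, the iduronidase, at 0.70 (adjusted p = 1.7e-11, 3.01e-08 and 8.31e-08 by edgeR). In DU145 7 of 24 rose, 2 fell and 15 did not pass, with a median of 0.16, and with DESeq2 4 rose and 3 fell. Over all genes tested in DU145 by edgeR, 10.7% rose and 9.42% fell. The smallest adjusted p belonged to PSAP, the precursor of the saposins, at 0.59, MANBA, another mannosidase, at 0.65, and GALC, the galactosylceramidase, at 0.51 (adjusted p = 0.00021, 0.000722 and 0.000967). PSAP was at 2102 to 2268 CPM in DU145 control and 3228 and 3325 CPM in DU145 overexpression libraries. GLB1, the third enzyme of the cathepsin A complex, was named after its values were seen. It was at 0.09 in PC3 (adjusted p = 0.129) and rose by 0.44 in DU145 (adjusted p = 0.000992).

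Among 21 other lysosomal genes, 7 rose, 5 fell and 9 did not pass in PC3 (median 0.03). In DU145 5 rose, none fell and 16 did not pass (median 0.11). Of all genes tested, 18.8% rose and 18.5% fell in PC3, and 10.7% rose and 9.42% fell in DU145. At an unadjusted p under 0.05 in edgeR, 8 of the 21 were higher and 0 lower in DU145, against 4465 of all 13676 genes in either direction. With DESeq2 or limma-voom 0 of the 21 fell in DU145. In PC3 the lipase LIPA fell by 0.30, and the peptidases TPP1 and CTSD rose by 0.28 and 0.21 (adjusted p = 5.88e-09, 8.15e-09 and 2.42e-08 by edgeR). CTSD did not pass in PC3 with the spread shared over all libraries (adjusted p = 0.343). In DU145 the cholesterol transporter NPC1 rose by 1.17, from 371 to 402 CPM in control to 846 and 874 CPM, and the protease CTSL and the transcription factor MITF rose by 0.64 and 0.53 (adjusted p = 1.78e-07, 0.000229 and 0.00058 by edgeR). MITF was also higher in PC3, at 13.3 to 14.8 CPM in control and 19.4 to 22.3 CPM in overexpression libraries. It was not among the 3 genes with the smallest adjusted p there. TFEB, of the same family, ran from 2.02 to 2.24 CPM in PC3 control and 1.70 to 2.59 CPM in PC3 overexpression libraries. In DU145 TFEB ran from 4.19 to 6.06 CPM in control and was at 4.96 and 6.08 CPM with ST6GAL1. TFE3 was lower, at 109 to 113 CPM in PC3 control and 101 to 104 CPM with ST6GAL1. In DU145 TFE3 ran from 78.8 to 81.3 CPM in control and was at 68.7 and 76.4 CPM with ST6GAL1. Of 11 other nucleotide sugar transporters, 2 rose and 1 fell in PC3, where 37.3% of all genes passed. None passed in DU145 in edgeR, DESeq2 or limma-voom, where 20.1% of all genes passed in edgeR. At an unadjusted p under 0.05 in edgeR, 2 transporters were lower and 0 higher in DU145, against the 4465 of 13676 genes given above. In PC3 SLC35B2 was at 0.21, SLC35A3 at 0.18 and SLC35B1 at -0.09 (adjusted p = 3.36e-05, 0.00511 and 0.0359). The calls of SLC35A3 and SLC35B1 were lost with the spread shared over all libraries (adjusted p = 0.0788 and 0.219). That of SLC35A3 was also lost without overexpression replicate 3 (0.0777), and that of SLC35B1 with DESeq2 (0.125) and without control replicate 2 or 3 or overexpression replicate 1 or 2 (0.0591 to 0.208).

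**Figure D5:**
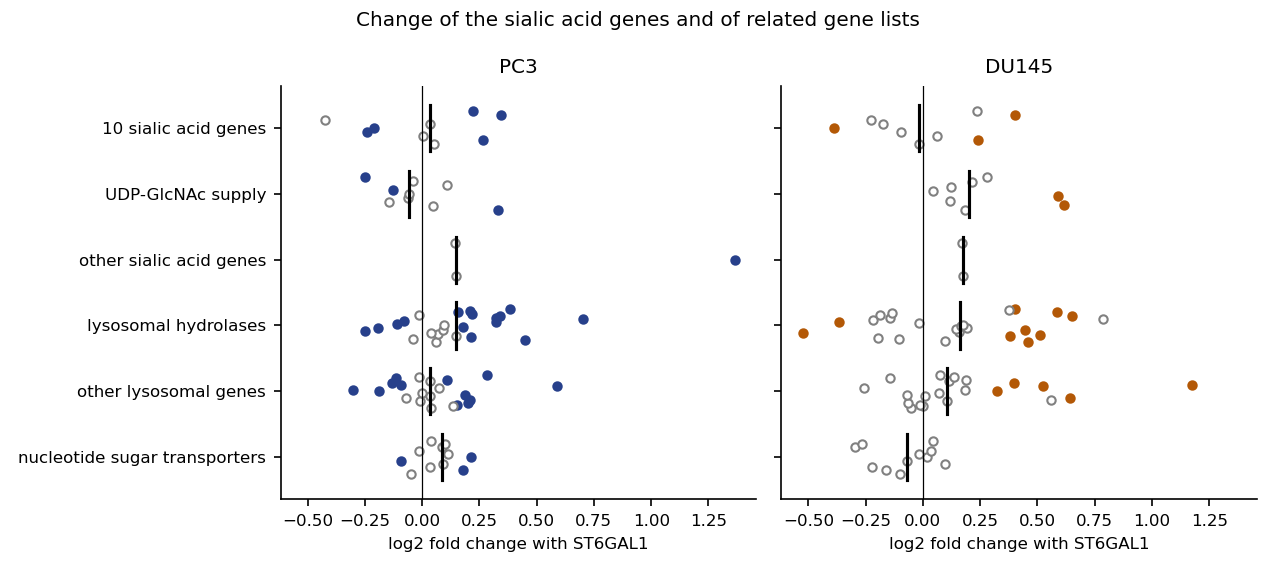
Log2 fold change with ST6GAL1 overexpression (horizontal axes) of each gene tested in the 10 sialic acid genes and 5 related lists, in PC3 and DU145. Each point is a gene, filled where it passed at an adjusted p under 0.05, and vertical bars are list medians, which lie between -0.07 and 0.20.

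Between the control cells more genes of the lysosomal lists were lower than higher in PC3. Of 24 hydrolases and cofactors 15 were lower and 7 higher (median -0.44), and of 21 other lysosomal genes 14 were lower and 7 higher (median -0.52), with a median of -0.003 over all genes. Of all genes tested between the lines 88.2% passed, 44.1% lower and 44.1% higher in PC3. HEXA, the alpha subunit of the hexosaminidase that trims gangliosides, had 0 counts in all 6 PC3 libraries and 2210 to 2755 counts in DU145 control libraries, at least 870.4-fold higher in DU145 against a floor of 3 counts per library. PARP6, close to HEXA on chromosome 15, also had 0 counts in PC3 control libraries against 5710 in DU145 control libraries together. CELF6, which lies between them, had 0 against 4. PKM and ARIH1, on either side of this stretch, were read in both lines. GALC had a log2 difference of -4.57, as PC3 minus DU145 (adjusted p = 7.38e-27 by edgeR). The proteases CTSB and CTSL differed by -2.17 and -2.65 and MITF by -1.81 (adjusted p = 2.65e-25, 6.37e-25 and 4.59e-19). Of the 11 transporters, 6 were higher and 5 lower in PC3, with SLC35B1 at 1.25, SLC35C1 at 1.78 and SLC35B2 at -0.91 (adjusted p = 1.7e-18, 5.84e-18 and 2.5e-15).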

How the data were processed

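RNA was measured by RNA-Seq from stranded mRNA libraries of PC3 and DU145 cells. In Galaxy, single reads had been trimmed, aligned by HISAT2 against hg38 and assigned to genes by featureCounts. The authors deposited these counts, not normalized, by Entrez identifier. The annotation and the strand setting of the counting are not given in the sources used here, so overlapping genes were reported with their partners. Groups came from the sample labels.

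Counts were tested with edgeR 4.0.16 in R 4.3.3 (filterByExpr at its defaults, TMM, robust quasi-likelihood test, Benjamini-Hochberg over all genes tested), separately for each line as in the study, whose own tool, limma-voom, was an alternative. Standard errors came from the log2 fold change and F, and 95% intervals from the t quantile of the fit. The interaction used all 11 libraries and the line comparison the control libraries. Normalized CPM used TMM factors over all libraries, and levels per kb used merged GENCODE exons. Coordinates, symbols and promoters are from RefSeq.

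Alternatives were limma-voom 3.58.1, DESeq2 1.42.0, RLE factors, at least 10 counts in every sample or no filter at all, the non-robust test, a replicate block, 1 fit over all libraries, an adjusted p under 0.01, each library left out and, added after the values were seen, MANE Select lengths. The members were chosen by pathway, and the members and lists were chosen with earlier results of these data known. Text names all members and, of each other list, at most 3 genes with the smallest adjusted p among those that passed, with exceptions stated. A few genes that this rule or the marker lists name are not reported here. Genes without counts were described without a test. The scripts were tested on simulated counts. No replicate pair differed by less than the sampling noise.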

Additional observations from a re-analysis of the deposited data

Results flagged for a closer look

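By the interaction test in edgeR (adjusted p under 0.05), 3 of 9 genes tested for the supply of UDP-GlcNAc, 8 of 24 hydrolases and cofactors, 6 of 21 other lysosomal genes and 2 of 11 transporters changed differently with ST6GAL1 in the 2 lines, against 19.7% of all 14952 genes tested. The 19 genes given here are ST6GAL1, those with the smallest adjusted p in each list, which were therefore chosen by this test, and genes named above that passed it. Each value is the change in DU145 minus the change in PC3 on the log2 scale. ST6GAL1 itself differed by 1.06, with the larger rise in DU145. In the supply of UDP-GlcNAc, GFPT2 differed by 0.76, GNPDA2 by 0.64 and UAP1 by 0.52. UAP1 fell in PC3 and was at 0.28 in DU145, where it did not pass (adjusted p = 0.0586 by edgeR).

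Among lysosomal genes, NPC1 differed by 1.26, CTSL by 0.71, LIPA by 0.48, PSAP by 0.43 and GLB1 by 0.35, all higher in DU145. HGSNAT differed by -0.69, MAN2B1 by -0.47, ASAH1 by -0.41 and TPP1 by -0.21. HGSNAT, an acetyltransferase of heparan sulfate breakdown, rose in PC3 (0.32) and fell in DU145 (-0.37). Among the transporters, SLC35D1 differed by -0.37 and SLC35A3 by -0.34. Among the markers, CDH1 differed by -1.12, EPCAM by -0.48, KRT18 by -0.27 and PECAM1, on few counts in DU145, by 1.77. The calls of TPP1, SLC35A3 and SLC35D1 were lost when single libraries were left out: TPP1 without PC3 control replicate 1 or 3, DU145 control replicate 3, or PC3 overexpression replicate 2 or 3 (adjusted p = 0.0518 to 0.109), SLC35A3 without DU145 control replicate 1, PC3 control replicate 2 or 3, or PC3 overexpression replicate 3 (0.0504 to 0.0813), and SLC35D1 without DU145 overexpression replicate 2 or PC3 overexpression replicate 3 (0.0503 and 0.0652).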

How the results depend on the processing

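No direction that had passed the test was reversed for the 10 sialic acid genes under any alternative run. With the spread shared over all 11 libraries, 2591 genes passed in PC3 in place of 5056, and 3 of the sialic acid genes in place of 5 (NANS and SLC35A1 were lost), while 4362 genes passed in DU145 in place of 2747. At an adjusted p under 0.01, 1472 genes and 1 sialic acid gene (SIAE) passed in DU145. Leaving out 1 library moved the DU145 count of genes from 1310 (without control replicate 2) to 4690 (without overexpression replicate 3), with 1471 without control replicate 1 and 1822 without control replicate 3, and the count over 0.58 from 830 to 2072 (without overexpression replicate 3). Without overexpression replicate 2 or 3 the DU145 arm is 1 library, assumed to vary like the other groups, so these counts have no spread within that arm. The number of sialic acid genes that passed in DU145 ran from 0 (without control replicate 2) to 3, with 1 without control replicate 1. The interaction gave 2287 to 5161 genes (1148 to 2270 over 0.58), both highest without DU145 overexpression replicate 3, and 0 or 1 sialic acid gene, NANS without DU145 control replicate 3. With MANE Select lengths 3 of 9 genes held their place in the order in DU145 control cells. With 10 neighbours on each side, 2 genes in PC3 (NPL and NANP) had a neighbour median beyond 0.1 in place of 1. Over the single values of the sialic acid genes, 129 in PC3 and 115 in DU145 had the same outcome as the main fit, passed or not passed. Genes without a call in the main fit are counted there too, so these are not all calls that held. A call was lost in 6 values in PC3 and 10 in DU145, and 1 value in DU145 gained one. These totals include the DU145 fits with 1 overexpression library. Values that had not passed could change sign, as GNE in PC3 did (0.01, and -0.03 without control replicate 1). Replicate numbers were shared between groups, but same-numbered libraries did not deviate together in PC3 (correlations -0.01 to 0.04; 0.10 and 0.31 for the 2 shared numbers in DU145), so the numbers were not read as pairs. With the replicate block 5155 genes passed in PC3, 3669 in DU145 and 3551 in the interaction, with 5, 3 and 0 of the sialic acid genes. The PC3 depth of 13 to 25 counts limits what can be said of NPL.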
